A study of Mus musculus with 24 samples.

Results

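The comparison described here is of proliferating C2C12 cells that carried a short hairpin RNA (shRNA) against the RNA helicase p68 with the same cells carrying an empty vector. C2C12 is an established line of mouse myoblasts, the precursors of skeletal muscle fibres, which divide in growth medium and leave the cell cycle to form myotubes in differentiation medium. The comparison used 12 of the 24 arrays of the series, chosen by their titles as the arrays of cells in growth medium (GM). These were 3 arrays with the p68 shRNA and 3 with the empty vector on each of 2 array designs, named MA and MB after the end of their titles. The other 12 arrays held the same pair of cell populations in differentiation medium (DM). They served to estimate the spread between arrays and to test whether the effect of the shRNA differed between the media.

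Per the labels, the shRNA group had been transduced with pSuperR_p68, an shRNA vector directed at p68. The control group had been transduced with pSuperR, the vector without an insert, so all cells compared here carried the vector. The labels name 1 shRNA and no rescue. The series' design text names p68 and its close relative p72 as targets of the RNA interference, whereas the labels of these arrays name p68 alone. The labels do not say whether replicates were separate cultures, clones or pools, nor how long the cells had been in GM. The p-values therefore measure only how far these arrays differ from one another, and that spread may be technical.

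p68, encoded by Ddx5, is a DEAD-box protein, a family that uses ATP to remodel RNA and RNA-protein complexes. It takes part in pre-messenger RNA splicing, in ribosomal RNA maturation and, with the Drosha complex, in the first cut of many microRNA precursors. In muscle cells it and p72 (Ddx17) are known as partners of MyoD, the transcription factor that commits cells to the muscle lineage. Myoblasts that proliferate express MyoD or Myf5, while myogenin (Myog), the cell cycle inhibitor p21 (Cdkn1a) and the sarcomere genes rise when the cells differentiate.

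The MA arrays had 14367 probe sets above the signal filter and the MB arrays 19303. Each array's mean correlation across probe sets with the other arrays of its group was 0.979 to 0.983 among the MA arrays of GM and 0.874 to 0.886 among the MB arrays. The median residual SD on the log2 scale was 0.214 on the MA and 0.523 on the MB design, and the number of arrays limits the precision on both. The ratio of 3′ to 5′ control probe sets, a measure of RNA quality, was lower with the shRNA by 0.10 (log2) on the MB arrays, where the groups did not overlap (exact two-sided permutation test p = 0.1, the smallest that 3 against 3 arrays allow). On the MA arrays it was lower by 0.05 and the groups overlapped (exact permutation p = 0.2).

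The cells bore the markers of myoblasts. These are bulk samples, in which fewer cells of a type and less RNA per cell cannot be told apart. Of 9 myoblast markers on the MA design, 8 had a median signal over 150, which is close to the trimmed mean of an array, including Myod1 at 1192, desmin (Des) at 1722 and the acetylcholine receptor subunit Chrna1 at 1863. Endothelial markers were at or near the bottom of the scale: the highest of the 8 had a median signal of 41.6, and Vwf and Tie1 stood at 0.556 and 0.914. Among 9 macrophage markers, Ptprc, which encodes CD45, was at 5.23 and Itgam at 2.75, and Cd14 was the highest at 100.6. Among 7 adipocyte markers, 4 had a median under 30, with Adipoq at 2.33 and Fabp4 at 17.03. The transcription factor Cebpa stood at 266.1, Retn at 56.6 and Pparg at 36.4. Of 8 smooth muscle markers, 4 had a median signal over 150, namely Acta2 at 7000 and Des, both of which myoblasts also express, Actg2 at 546.4 and Smtn at 339.8. Of the other 4, Cnn1 was at 66.0, Lmod1 at 21.4, Myh11 at 12.5 and Myocd at 1.98. Among 7 osteoblast and cartilage markers, 4 had a median under 30, and the highest were Sp7 at 111.7 and Sox9 at 89.1. Of the 9 myoblast markers, Cdh15 alone passed the limma test with the shRNA and was lower, and 6 had an unadjusted p under 0.05. Over all 8639 MA genes, 7.05% passed and 1832 had an unadjusted p under 0.05. None of the tested adipocyte, osteoblast and cartilage, macrophage, endothelial or smooth muscle markers (3, 4, 5, 2 and 6 genes) passed the limma test with the shRNA, and 0, 1, 1, 0 and 3 of them had an unadjusted p under 0.05.

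The first question was whether the target of the shRNA was lower. Ddx5 was read by 6 MA probe sets, and none of them passed the test in GM. At its brightest probe set, the shRNA arrays read 351.4, 388.3 and 376.5 and the vector arrays 483.3, 420.4 and 489.2, in the order of replicates 2, 3 and 4 for the shRNA and 1, 3 and 4 for the vector, which is kept below for the MA design. All 3 shRNA arrays were below all 3 vector arrays. The log2 change was -0.31 ± 0.15 (standard error), with an adjusted p of 0.287 in limma and an exact permutation p of 0.1.

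A further Ddx5 probe set had groups that did not overlap. It read 135.8, 132.7 and 162.4 in the shRNA arrays and 219.9, 179.1 and 225.1 in the vector arrays, and its log2 change was -0.49 ± 0.18 (adjusted p = 0.135). The remaining 4 had a negative change as well, from -0.34 to -0.07, with overlapping groups. The signal was thus lower at each Ddx5 probe set, by an amount that did not pass the test over all probe sets. In DM, the brightest probe set was lower by 0.68 with the shRNA (adjusted p = 0.0068), and the difference between the media, tested as an interaction, did not pass (0.38, adjusted p = 0.33). Ddx17, which encodes p72, read 809.4, 819.0 and 738.7 in shRNA cells and 786.6, 760.7 and 779.2 in vector cells. The groups overlapped, and its log2 change was 0.02 ± 0.09 (adjusted p = 0.929).

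**Figure D1:**
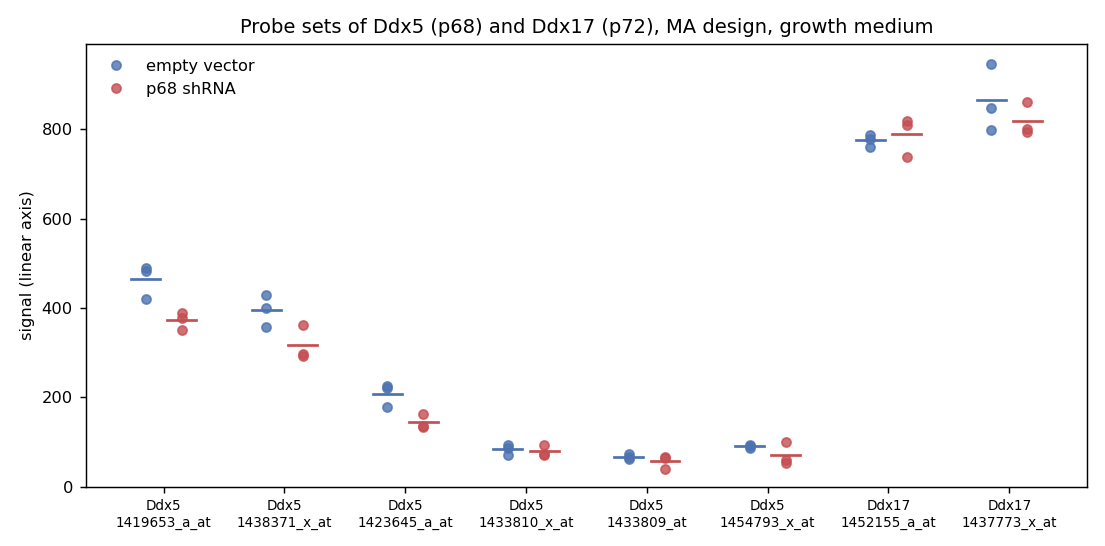
Signal (linear axis) of each GM array for the 6 Ddx5 and 2 Ddx17 probe sets of the MA design. Points are arrays and bars the group means; the shRNA arrays lie below the vector arrays without overlap at 2 of the 6 Ddx5 probe sets, and the Ddx17 groups overlap at both.

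Across the genome, the cells with the shRNA differed from the vector cells in GM at many probe sets. On the MA design, 573 probe sets were higher (3.99% of those tested) and 369 lower (2.57%) at an adjusted p under 0.05 in limma, together 6.56%. The rises were larger than the falls: 122 of the higher and 24 of the lower probe sets changed by 2-fold or more. The groups did not overlap at 4303 probe sets (30% of those tested). The balance of directions depended on the scaling. With each array centred on its median in place of the authors' scaling, 418 were higher and 478 lower, so that rises made up 46.7% of the calls and not 60.8%. Each array left out lowered the counts. Higher probe sets numbered 334, 340 and 326 without shRNA replicates 2, 3 and 4 and 340, 271 and 416 without vector replicates 1, 3 and 4. Lower ones numbered 217, 203 and 171 without the shRNA replicates and 156, 138 and 219 without the vector replicates.

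The leading rise was Sfrp2, which encodes a secreted Wnt antagonist. The shRNA arrays read 2680, 2133 and 2777 and the vector arrays 260.6, 229.0 and 297.8, so every shRNA array exceeded every vector array several times over. The log2 change was 3.20 ± 0.13 (limma adjusted p = 3.58e-09), or 9.16-fold. Gas6, a ligand of the TAM receptor tyrosine kinases that was found as a gene of growth arrest, read 668.3, 646.9 and 749.2 against 57.0, 54.7 and 79.2. It rose by 3.17 ± 0.13 (adjusted p = 3.58e-09). No other gene named here changed as much.

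Next came secreted proteins of the matrix. Prelp, a small leucine-rich proteoglycan, read 472.0, 371.0 and 453.8 against 61.3, 36.0 and 68.4 and rose by 2.69 ± 0.21. Fbln7, a fibulin, read 327.9, 215.0 and 273.7 against 37.4, 20.7 and 34.4 and rose by 2.65 ± 0.19. The groups of both genes were far apart. Fibromodulin (Fmod), a relative of Prelp, rose at 5 of 6 probe sets, and the one with the highest mean read 118.5, 123.5 and 153.8 against 20.03, 16.28 and 27.55, a change of 2.02 ± 0.20. Ccn3, a matricellular protein, was near the bottom of the scale with the vector (5.79, 1.44 and 8.95) and read 74.0, 58.7 and 93.2 with the shRNA. Its change of 2.15 ± 0.21 on the log2(signal + 15) scale understates the ratio of such low signals.

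Genes of antioxidant defence, carbon dioxide handling and lipid use were also among the largest rises. Selenop, the carrier of selenium in plasma, read 386.6, 292.4 and 325.8 against 79.4, 39.5 and 77.0 (2.16 ± 0.26). Gpx3, the secreted glutathione peroxidase, read 930.8, 1270 and 1064 against 283.3, 276.9 and 293.7 (1.87 ± 0.19). Both are selenoproteins, and neither gene's groups overlapped. Carbonic anhydrase 3 (Car3), abundant in slow muscle and fat, read 2182, 2129 and 2357 against 606.4, 391.4 and 606.7 (2.05 ± 0.17, with both probe sets higher). Plin4, a coat protein of lipid droplets, read 341.7, 319.3 and 306.3 against 61.4, 57.3 and 81.2 (2.06 ± 0.23). Lpl, lipoprotein lipase, read 204.7, 151.5 and 177.9 against 33.2, 41.8 and 32.6 (1.92 ± 0.17).

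Rgs4, a brake on G protein signalling, read 90.2, 82.7 and 90.2 against 6.195, 19.95 and 2.294 and rose by 2.13 ± 0.31 at 1 of 2 probe sets. The growth factor Igf2 rose by 1.95 ± 0.27 at 1 of 2 probe sets, reading 160.2, 166.5 and 213.4 against 62.9, 12.4 and 44.4. Neat1, the long noncoding RNA that scaffolds paraspeckles, read 158.3, 189.9 and 207.2 against 68.91, 10.98 and 50.03 (1.93 ± 0.40). In both of these, vector replicate 3 was the lowest array. The chemokine Cxcl1 read 62.6, 82.2 and 87.0 against 12.95, 11.89 and 9.623 (1.79 ± 0.27). Rgs4 and Cxcl1 met the signal filter only through their shRNA arrays in GM, so each was tested only because it was high there. All 15 leading rises kept their call without any 1 array and in each of the other settings in which they were tested. Ccn3, Rgs4, Fmod and Cxcl1 were not tested where the filter was raised to a signal of 150 in at least 3 arrays.

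The falls were smaller. Errfi1 (Mig6), a feedback inhibitor of the EGF receptor, read 226.2, 273.6 and 212.7 in shRNA cells and 612.9, 573.9 and 591.4 in vector cells. It fell by 1.27 on the log2 scale (standard error 0.12, limma adjusted p = 3.9e-05), at both of its probe sets. Col18a1, the basement membrane collagen from which endostatin is cut, read 365.1, 370.3 and 315.1 against 857.9, 813.5 and 796.0. Its change was -1.20, again at both probe sets, and no shRNA array of either gene reached a vector array. Gdnf, a neurotrophic factor, read 46.2, 38.6 and 59.3 against 148.1, 116.2 and 121.1 (-1.19 ± 0.20).

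Among the other named falls, Grwd1, a histone-binding protein that also takes part in ribosome assembly, read 239.2, 197.1 and 239.4 against 463.6, 594.8 and 441.7 (-1.09 ± 0.16, 2 of 3 probe sets lower). Fibrillarin (Fbl), the methyltransferase of box C/D small nucleolar particles, read 891.6, 576.3 and 678.8 against 1389, 1439 and 1410 (-0.99 ± 0.18, both probe sets lower). Neither gene's groups overlapped. Tufm, the mitochondrial elongation factor, read 73.0, 120.9 and 77.1 against 195.8, 187.2 and 187.2 (-0.99 ± 0.17). Mrpl12, a protein of the mitochondrial ribosome, read 622.5, 748.8 and 768.8 against 1267, 1619 and 1285 (-0.95 ± 0.14).

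The other leading falls covered varied functions. They were the calcium-activated potassium channel Kcnn4 (-1.06), Klhdc8a (-1.05), the guanine nucleotide exchange factor Ngef (-1.05), the keratin Krt80 (-1.05), the surface protein mesothelin (Msln, -0.98), Aif1l (-0.98, 2 of 3 probe sets lower) and Zfp428 (-0.93). Tnnt2, the cardiac and embryonic form of troponin T, is described with the muscle genes. Of the 15 falls, 11 kept their call without any 1 array. Kcnn4 and Klhdc8a lost it without each of the 6 arrays in turn, Ngef without shRNA replicate 3 or vector replicate 4, and Zfp428 without shRNA replicate 3 or 4 or vector replicate 1 or 3.

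**Figure D2:**
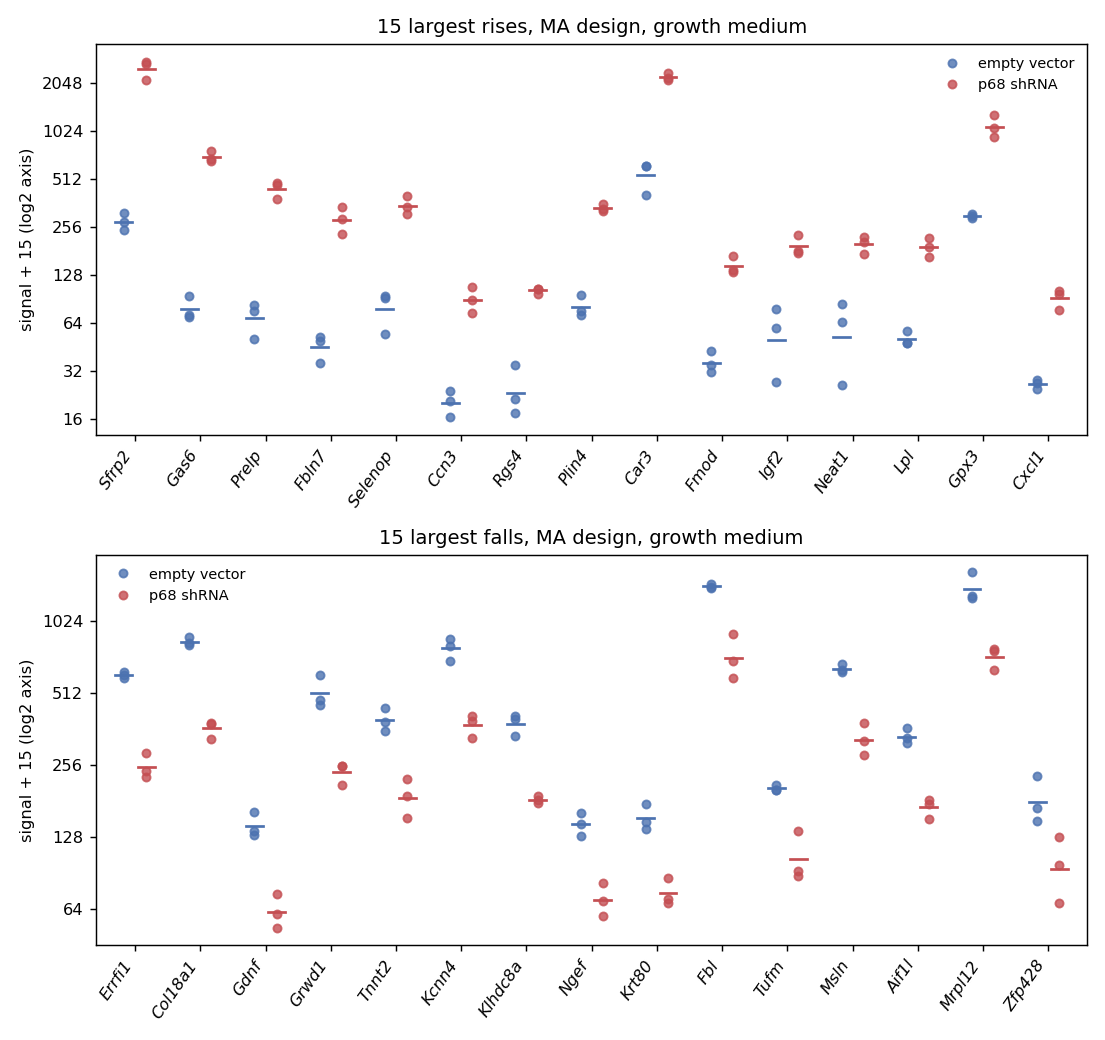
Signal + 15 (log2 axis) of each MA array in GM for the 15 largest rises and the 15 largest falls. Points are arrays and bars the means on the log scale; in no gene do the shRNA and vector arrays overlap, which the choice of genes required.

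Gene lists were read with 1 probe set per gene, the one with the highest mean over the design. Over all 8639 MA genes, 377 were higher (4.36%) and 232 lower (2.69%), together 7.05%, and the median log2 change was 0.04. Among extracellular matrix genes, 14 of 44 measured were higher and 1 lower, with a median change of 0.28. Prelp and Fmod, given above, had the largest changes. Col12a1, a collagen that binds to the surface of fibrils, read 156.5, 175.3 and 200.3 against 43.0, 47.5 and 61.2 (1.56 ± 0.16, limma adjusted p = 5.75e-05). The collagen VI chains Col6a1 (1441, 1447 and 1550 against 574.4, 495.6 and 556.0) and Col6a2 (1304, 1296 and 1411 against 497.4, 491.4 and 459.5) rose by 1.43 and 1.44. These chains assemble into the same protein, and no shRNA array of either overlapped a vector array.

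The elastic fibre protein Fbln5 rose by 1.53 ± 0.14, with readings of 366.2, 348.5 and 407.5 against 135.1, 95.4 and 131.6. The thrombospondins, which bind matrix and growth factors, both rose, Thbs2 by 1.13 ± 0.15 and Thbs1 by 0.75 ± 0.13. The crosslinking enzyme lysyl oxidase (Lox) rose by 0.73 ± 0.12, from 847.6, 701.8 and 930.5 with the vector to 1359, 1383 and 1384 with the shRNA. Decorin (Dcn) rose by 0.97 but stayed at low signal, 19.01, 26.35 and 23.00 against 3.04, 4.74 and 4.89. The fibrillar collagens rose less: Col5a1 by 0.63, Col3a1 by 0.49 and Col5a2 by 0.40. Nidogen 2 (Nid2), a linker of the basement membrane, rose by 0.51. Thus the list held rises from collagens, proteoglycans and their crosslinker, while Col18a1 was its only call in the other direction. Without 1 array at a time, 12 or 13 members were higher. Nid2 lost its call in 5 of those 6 fits (not without vector replicate 4), and Col5a2 in 5 (not without vector replicate 1).

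Among matrix proteases and inhibitors, 2 of 14 were higher and 1 lower. Mmp2, gelatinase A, read 1801, 1799 and 1650 against 762.9, 657.2 and 777.7 (1.24 ± 0.11, adjusted p = 1.24e-05). Adamts1 read 76.3, 66.4 and 60.6 against 29.4, 32.7 and 38.8 (0.77 ± 0.14). The inhibitor Timp1 went the other way, with 1467, 1659 and 1437 against 2566, 2714 and 2234 (-0.71 ± 0.12). None of these groups overlapped.

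Secreted signals formed a further group. In the insulin-like growth factor axis, 3 of 15 genes were higher and 3 lower. Besides Igf2, the binding protein genes Igfbp3 (110.3, 220.0 and 150.2 against 50.6, 64.5 and 63.9; 1.19 ± 0.21) and Igfbp7 (1665, 1520 and 1504 against 682.5, 668.9 and 727.2; 1.16 ± 0.17) rose. Igfbp2 (-0.57 ± 0.11), which kept its call without any 1 array, Igfbp6 (-0.54 ± 0.14) and Igfbp5 (-0.52 ± 0.14) fell, so the binding proteins split. The falls were less stable: 1 of the 3 was called without shRNA replicate 2 or 4 or vector replicate 4, and 2 without each of the other arrays.

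In the Wnt pathway, 3 of 22 genes were higher and 1 lower. Along with Sfrp2, the secreted antagonist Dkk3 rose by 0.93 ± 0.23 and the ligand Wnt10b by 0.89 ± 0.22. The ligand Wnt10a fell from 229.8, 195.1 and 195.7 to 95.8, 107.5 and 102.4 (-0.92 ± 0.18). Only Sfrp2 of the 3 rises was called without shRNA replicate 2 or vector replicate 1 or 3, and Dkk3 also lost its call without shRNA replicate 4 or vector replicate 4, and Wnt10b without shRNA replicate 3. In the TGF-β and BMP pathway, 4 of 32 genes were higher and none lower (5 had an unadjusted p under 0.05). They were the inhibitory Smad6 (0.95 ± 0.15), the ligands Bmp4 (0.75 ± 0.18) and Tgfb3 (0.73 ± 0.14) and the secreted glycoprotein Fstl1 (0.70 ± 0.10). Bmp4 lost its call without shRNA replicate 2 or 4 or vector replicate 1 or 3. The Notch target Hey1, read at 54.6, 47.8 and 41.6 against 18.1, 12.7 and 13.6, was the single gene called among 17 of the Notch pathway (1.08 ± 0.16).

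Of 14 chemokines and cytokines, 3 were higher and 0 lower (6 had an unadjusted p under 0.05). Cxcl12, the ligand of Cxcr4, read 678.2, 854.1 and 704.9 against 307.5, 341.4 and 329.9 (1.15 ± 0.13). Vegfd, a lymphatic growth factor, rose by 0.90 ± 0.17, and Cxcl1 is given above. Cxcl1 averaged 3.45 in the shRNA and 9.87 in the vector arrays of DM and met the signal filter only through the shRNA arrays of GM. It could therefore enter this list only as a rise, and its call adds no support to the count. Of 12 measured interferon response genes 1 was called, Ifitm1, which fell by 0.84 from 237.1, 226.3 and 273.9 to 144.3, 134.5 and 114.8. It lost that call without shRNA replicate 4 or vector replicate 4.

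Among glutathione and detoxification genes, 8 of 29 were higher and 1 lower. After Gpx3, extracellular superoxide dismutase (Sod3) rose by 1.03 ± 0.15 and the microsomal transferase Mgst1 by 1.00 ± 0.19. The carbonyl reductase Cbr2 read 1137, 1172 and 1060 against 578.2, 552.8 and 610.9 (0.93 ± 0.11, adjusted p = 0.000242). The mu-class glutathione transferases moved together: Gstm5 by 0.90, Gstm2 by 0.85 and Gstm1 by 0.65. Their sequences are much alike, and probes can cross-hybridise, so they are not 3 independent readings. The epoxide hydrolase Ephx1 read 1212, 1354 and 1163 against 704.8, 650.9 and 691.0 (0.85 ± 0.12). The omega-class Gsto1 fell by 0.61 and lost its call without any one array but shRNA replicate 2. Gstm1 lost its call without shRNA replicate 3 or vector replicate 3.

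In glycolysis and hypoxia, 4 of 22 genes were higher and 1 lower. Bnip3, a mitophagy receptor induced by hypoxia, read 563.9, 537.6 and 491.7 against 198.4, 177.7 and 217.5 (1.36 ± 0.15). The aldolase Aldoc rose by 1.29 ± 0.25, and the collagen prolyl hydroxylase subunits P4ha2 and P4ha1, which prepare collagen chains, by 0.69 and 0.63. Egln3, a prolyl hydroxylase of the hypoxia-inducible factors, read 197.8, 172.6 and 184.9 against 320.3, 323.9 and 320.3, a change of -0.75 ± 0.10. Without vector replicate 3, neither P4ha gene was called. P4ha1 also lost its call without shRNA replicate 2 or 3, and P4ha2 without shRNA replicate 4.

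Oxidative phosphorylation genes split evenly, with 4 of 37 higher and 4 lower. The complex I subunit Ndufs4 read 238.0, 247.6 and 224.1 against 121.7, 85.0 and 115.3 (1.05 ± 0.20). Ndufa4 (0.68), Cox6c (0.49) and Ndufa1 (0.37) also rose, and Ndufb8 (-0.52), cytochrome c1 (Cyc1, -0.51), the succinate dehydrogenase subunit Sdhb (-0.41) and Ndufa10 (-0.36) fell. Ndufs4 and Cyc1 alone kept their calls without any 1 array. In these fits, 1 to 3 members were higher and 1 or 2 lower, with 1 higher without vector replicate 3 and 1 lower without shRNA replicate 4 or vector replicate 3 or 4.

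Calls among lipid genes went in both directions. In cholesterol and fatty acid synthesis, 4 of 32 were higher, namely acetate-activating Acss2 (0.71), Hsd17b7 (0.61), the desaturase Scd1 (0.57) and Cyp51 (0.52), and the sterol isomerase Ebp was lower (-0.62). Without shRNA replicate 2 or vector replicate 3, Acss2 was the single rise left, and 2 or 3 were left without each of the other arrays. Of 11 lipid carriers and droplet genes, Lpl (1.92) and Dbi (0.55) were higher and the fatty acid binding protein Fabp5 lower (-0.47). Dbi lost its call without shRNA replicate 3 or 4 or vector replicate 1 or 3. Of 19 endoplasmic reticulum chaperones, the disulfide isomerases Pdia6 (0.56) and Pdia3 (0.48) and the co-chaperone Dnajc3 (0.55) were higher. None of these chaperones was called without shRNA replicate 2 or 3 or vector replicate 1 or 3, 1 was called without shRNA replicate 4 and 2 without vector replicate 4. S100a1 (0.53) and S100a13 (0.49) rose and annexin A8 (Anxa8) fell (-0.54), among 13 S100 and annexin genes. In the immediate early list Jun rose by 0.58, among 21 genes. Phlda3 (-0.52) was the single call among 17 p53 targets, and Tagln2 (-0.49) the single call among 21 stress fibre genes. Each of these last 6 calls was lost without at least 3 of the 6 arrays.

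Calls among muscle genes in growth medium differed by list, against 7.05% of all MA genes. Called were 2 of 31 sarcomere, 1 of 15 energy metabolism and 0 of 14 calcium handling and neuromuscular junction genes (4 of these 14 at an unadjusted p under 0.05, limma). The share was 17.6% of 17 myogenic transcription factors and their inhibitors and 23.8% of 21 adhesion and fusion genes. Myod1 read 1544, 1170 and 1163 against 1168, 1328 and 1215, with overlapping groups (0.05 ± 0.13, adjusted p = 0.885). Myog read 49.7, 58.0 and 75.1 against 74.6, 66.1 and 92.8, and these groups overlapped too (-0.29 ± 0.17, adjusted p = 0.375). Myf5 was low, at 38.5, 35.7 and 60.5 against 25.7, 24.4 and 34.8 (0.45 ± 0.21, adjusted p = 0.241), with every shRNA array above every vector array. Of 17 myogenic transcription factors and their inhibitors, 2 were higher and 1 lower. Id3 and Id1 encode proteins that keep MyoD's partners from binding DNA. Id3 rose by 0.73 ± 0.10, from 1189, 1274 and 1362 to 2058, 2309 and 2004, and Id1 by 0.45 ± 0.11, a call it kept in the fit without shRNA replicate 3 and lost without each of the other arrays. Tead2 fell by 0.80 ± 0.19 and kept its call only without shRNA replicate 2 or 4.

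Sarcomere genes are known to be low in dividing myoblasts. Among 31 measured, 0 were higher and 2 lower, and the median change was -0.20. Tnni2, fast troponin I, was near the bottom of the scale with the shRNA (2.74, 10.3 and 3.82) and read 37.0, 35.8 and 47.9 with the vector. Its change was -1.43 ± 0.16 (adjusted p = 9.83e-05). Tnnt2 read 138.3, 208.2 and 174.7 against 428.1, 338.9 and 371.9 (-1.07 ± 0.14), and both of its probe sets were lower. The groups of neither gene overlapped. The muscle creatine kinase Ckm, from the list of muscle energy metabolism, read 37.9, 26.9 and 25.9 against 51.4, 50.6 and 47.7 (-0.53 ± 0.14) and kept its call only without shRNA replicate 2. Without vector replicate 3, 4 sarcomere genes were lower.

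The region before the Tnnt2 start site is shown because it holds 2 copies of CAGCTG, the form of E-box that MyoD is known to prefer, in the one fallen sarcomere gene with a RefSeq promoter entry. The stretch lies on chr1:135836099-135836194 (GRCm38.p6, plus strand), from 235 to 140 bases before the start, with the motifs in capitals beginning 223 and 157 bases before it.
Tnnt2: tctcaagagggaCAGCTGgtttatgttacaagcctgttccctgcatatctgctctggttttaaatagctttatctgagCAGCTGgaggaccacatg
CAGCTG, searched on both strands in windows from 250 bases before to 50 bases after the start, was present in 14.5% of 7012 windows of measured MA genes, in 16.3% of the 300 of higher genes and in 15.5% of the 187 of lower genes. Among sarcomere genes it was in 9 of 25 windows, and in the 1 window of those that fell, so members that were not called held it too. A match is a description of the sequence and not a site of binding.

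Of the cell adhesion and fusion genes, 3 of 21 were higher and 2 lower. N-cadherin (Cdh2, 0.51), the sarcoglycan Sgcb (0.64) and Jam3 (0.52) rose. M-cadherin (Cdh15), the cadherin of satellite cells and myoblasts, read 418.7, 533.2 and 420.2 against 744.4, 801.7 and 777.2 and fell by 0.75 ± 0.14. The integrin Itga6 fell by 0.64. The 2 cadherins thus went in opposite directions. Cdh15 alone kept its call without any 1 array. Of the rises, 0 were called without shRNA replicate 2 or vector replicate 1 and 1 without each of the other arrays.

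**Figure D3:**
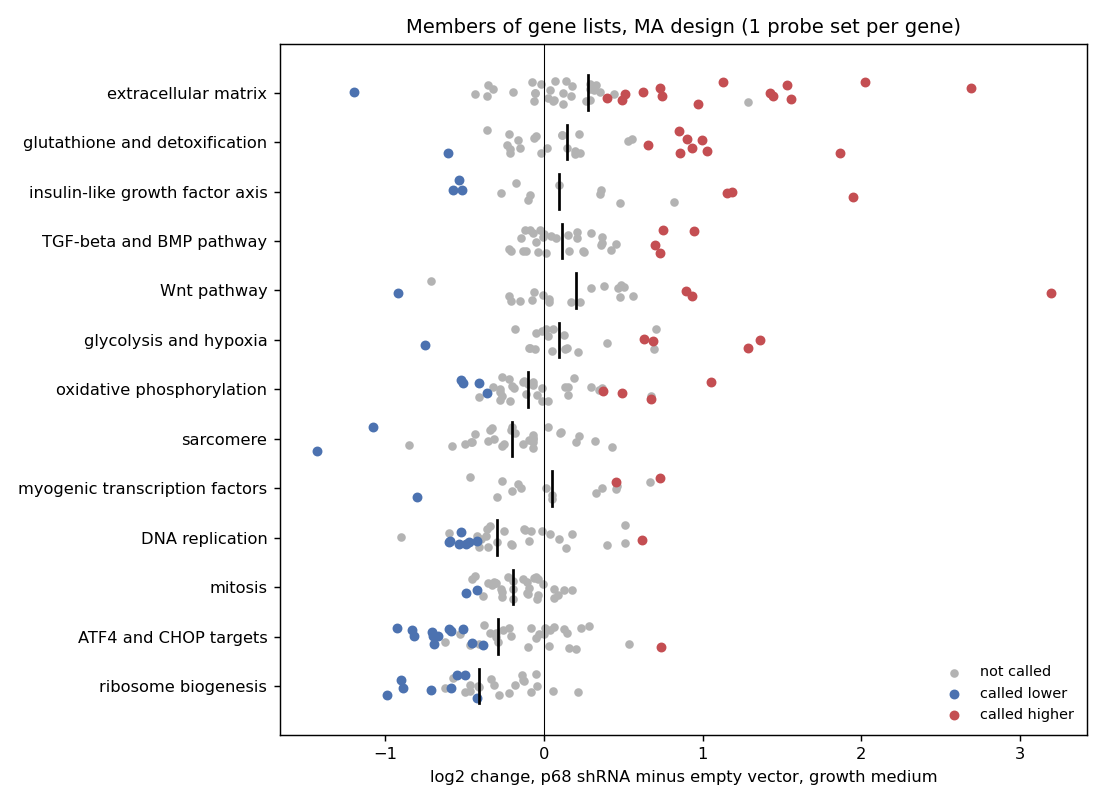
Log2 change with the shRNA in GM (MA design) of each measured member of 13 gene lists. Grey points did not pass, red points were called higher and blue points lower, and black bars mark the list medians; ribosome biogenesis, with a median of -0.41, has 8 blue and no red points, and the matrix list has 14 red and 1 blue.

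Of 28 ribosome biogenesis genes measured on the MA design, 8 were lower and 0 higher in limma, 26 had a negative change and the median was -0.41 (15 had an unadjusted p under 0.05). On the MB design 0 of 8 were called (1 at an unadjusted p under 0.05). Over all MB genes 0.483% were called, 0.0805% of them all as lower, so a count of 0 in a short list says little. Besides Fbl, the small nucleolar proteins Nhp2 (876.1, 669.9 and 739.3 against 1427, 1652 and 1195; -0.89 ± 0.13), Nop56 (-0.71), Gar1 (-0.50) and Nop10 (-0.42) fell. The processome proteins Rrp12 (-0.90 ± 0.18) and Utp20 (-0.55), and Mybbp1a (-0.59), a nucleolar partner of Myb, fell as well. The call of Nop56 was lost without each of the 6 arrays in turn. Fbl and Nop56 belong to box C/D particles and Nhp2, Gar1 and Nop10 to box H/ACA particles, so both kinds were represented. The counts fell to 5 without shRNA replicate 3 or 4 or vector replicate 4, and to 4 without vector replicate 3. Ribosomal protein genes did not pass in either direction (0 of 15, with 4 at an unadjusted p under 0.05).

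The windows of Mybbp1a and Utp20 are shown because they hold CACGTG, the E-box bound by the Myc family, a known regulator of ribosome production. Both matches lie in the first bases of the transcript, so 30 bases are given, on chr11:72441347-72441376 (plus strand) and chr10:88826765-88826794 (minus strand) of GRCm38.p6. The capitals, which mark the motif, begin 40 and 37 bases after the start base.
Mybbp1a: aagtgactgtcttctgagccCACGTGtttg
Utp20: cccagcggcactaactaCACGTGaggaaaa
CACGTG was present in 10.3% of all 7012 windows, in 7.33% of the windows of higher genes and in 15.5% of those of lower genes. Among ribosome biogenesis genes it was in 7 of 23 windows, and in 2 of the 6 windows of those that fell. Altogether 25 motifs were counted in this way, and no test was made of any.

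ATF4 and CHOP are transcription factors of the amino acid and stress response. Of 41 of their targets measured on the MA design, 12 fell and 1 rose, 28 had a negative and 13 a positive change, and the median was -0.29. The falls cover serine and glycine synthesis, transfer RNA charging and amino acid uptake. In the serine pathway, Phgdh, its first enzyme, read 2100, 2282 and 2287 against 3354, 4186 and 3428 (-0.71 ± 0.13, all 4 probe sets lower). Psat1 (-0.69 ± 0.10) and Psph (-0.60 ± 0.11), its next steps, fell as well, so each enzyme of the pathway was lower. Of the mitochondrial folate enzymes that use serine, Shmt2 read 711.2, 610.2 and 743.1 against 1351, 1484 and 1134 (-0.92 ± 0.12), and Mthfd2 changed by -0.83 ± 0.17.

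Asparagine synthetase (Asns) read 1288, 1334 and 1223 against 2119, 2188 and 1960 (-0.70 ± 0.11, both probe sets lower). The glutathione-degrading enzyme Chac1 read 226.6, 177.2 and 252.9 against 369.8, 452.7 and 364.7 (-0.82 ± 0.14). The synthetases Iars (-0.66), Yars (-0.51), Gars (-0.46) and Nars (-0.38), which load isoleucine, tyrosine, glycine and asparagine on their transfer RNAs, and the amino acid transporter Slc7a5 (-0.59) completed the falls. Ddit3, which encodes CHOP itself, was the rise, from 130.9, 89.3 and 108.8 to 187.3, 203.4 and 182.5 (0.74 ± 0.14, adjusted p = 0.00702). On the MB design 1 of 9 members was called, against 0.483% of all MB genes. It was the amino acid transporter Slc38a2, which rose by 0.86 ± 0.16 at 1 of 2 tested probe sets (limma adjusted p = 0.0286). That call was lost without each of the 6 arrays in turn. Calls in the list thus went in both directions. Without vector replicate 1, 7 targets were lower, and 8 to 10 without each of the other arrays.

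The windows of Chac1, Iars and Yars are shown because they hold TGATGCAA, the composite element read by ATF4 and C/EBP proteins, in one orientation or the other. That of Chac1 begins 193 bases before the start (chr2:119351023-119351082, GRCm38.p6). Those of Iars and Yars begin 7 and 3 bases after the start base and are given in 30 bases (chr13:49682126-49682155 and chr4:129189895-129189924, same build). All 3 genes lie on the plus strand.
Chac1: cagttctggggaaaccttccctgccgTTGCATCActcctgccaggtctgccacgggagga
Iars: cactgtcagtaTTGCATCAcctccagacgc
Yars: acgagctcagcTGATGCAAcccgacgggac
The element was present in 0.67% of all 7012 windows. It was in 10 of 34 windows of the ATF4 and CHOP list and in 3 of the 10 windows of its fallen members. The list was made up of known targets of these factors, so a high share in it follows from its choice.

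Of 33 DNA replication genes measured, 7 were lower and 1 higher in GM, with a median change of -0.30. Lowered were the clamp loader subunit Rfc5 (-0.60), the polymerase subunits Pole (-0.60) and Pold2 (-0.52), the helicase subunits Mcm3 (-0.53) and Mcm7 (-0.42), the ligase Lig1 (-0.49) and the single-strand binding protein Rpa1, which read 2663, 2603 and 2442 against 3730, 3478 and 3492 (-0.47 ± 0.10). The origin recognition subunit Orc6 rose by 0.62. No shRNA array of Rpa1 came near a vector array, but the list as a whole was sensitive to single arrays. Without shRNA replicates 2, 3 and 4, 3, 2 and 0 members were lower, and without vector replicates 1, 3 and 4, 1, 1 and 4.

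Of 33 mitotic genes, Plk1 (-0.49) and Top2a (-0.42) were lower, and the list's median was -0.20. Both lost their call without each of the 6 arrays in turn. Ccnd1, cyclin D1, read 1271, 1138 and 1172 against 1468, 1578 and 1290 (-0.27 ± 0.15, adjusted p = 0.342). Cdkn1a read 1207, 919.0 and 953.4 against 1437, 1514 and 1377, without overlap (-0.49 ± 0.16, adjusted p = 0.0796). It passed with quantile normalization, with array weights and in a fit of the 6 GM arrays alone. On the MA design none of 18 genes of G1 cyclins, E2F factors and the retinoblastoma family passed (limma, 2 at an unadjusted p under 0.05). On the MB design 1 of 11 did, against 0.483% of all MB genes. It was E2f2, which fell by 1.49.

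Lists close to the known molecular roles of p68 were read against the 7.05% of all MA genes called. Of 25 DEAD-box helicases 3 were called (12%). Ddx54 (344.6, 362.9 and 377.7 against 639.0, 603.0 and 573.3; -0.72 ± 0.12) and Ddx39a (-0.63 ± 0.10) fell and the translation factor Eif4a2 rose (0.88 ± 0.20). The Eif4a2 call was lost without shRNA replicate 3 or 4 or vector replicate 1 or 3. Of 20 p68 partners and MyoD coregulators 0 passed, of 36 splicing factors 0, and of 6 microRNA pathway genes on the MA design 0 (limma, with 6, 4 and 2 at an unadjusted p under 0.05). On the MB design, Drosha read 947.4, 959.4 and 867.0 against 973.0, 1210 and 1021 (-0.20 ± 0.20, adjusted p = 0.925), and its partner Dgcr8 read 1437, 1051 and 1121 against 1407, 1339 and 1301 (-0.18 ± 0.17, adjusted p = 0.918). A p that misses the threshold does not show that these genes were equal in the 2 groups.

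The MB design, noisier and with many probe sets of unnamed transcripts, gave few calls. In GM, 40 probe sets were higher with the shRNA (0.207%) and 13 lower (0.0673%). The 3′ to 5′ control ratio differed between these groups as given above, and its part in the MB results was not tested. Median centring left 16 higher and 7 lower. Higher probe sets numbered 5, 11 and 16 without shRNA replicates 1, 2 and 3 and 10, 29 and 12 without vector replicates 1, 2 and 3, and lower ones 12, 6 and 10 and 4, 7 and 7.

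Rtl3, a retrotransposon-derived gene of the Gag type, led the MB rises, with 309.8, 213.9 and 319.6 against 32.3, 29.4 and 35.7 for replicates 1, 2 and 3 of each group (2.62 ± 0.25, limma adjusted p = 3.38e-05). Plb1, a phospholipase, rose by 2.57 ± 0.48 and Angpt4, an angiopoietin, by 2.54 ± 0.39. The transglutaminase Tgm5 (2.40), the nuclear factor Aff3 (2.24), Trabd2b (2.15), the matrix protein Sned1 (2.06) and Gin1 (1.98) followed. Col8a2, a short-chain collagen, read 2041, 1253 and 1517 against 505.8, 503.5 and 392.2 (1.73 ± 0.26). The glutamate transporter Slc1a3 read 1027, 871.0 and 1025 against 192.6, 354.7 and 331.3 (1.73 ± 0.31). Of these 10, Rtl3 kept its call in every setting tried, and Aff3 lost it only in a fit of the 6 GM arrays alone. Col8a2 lost its call without shRNA replicate 1 or without the trend in eBayes, Angpt4 without shRNA replicate 1 or 2, and the other 6 without 4 or more of the 6 arrays. Plb1 and Slc1a3 were called at 1 of 3 tested probe sets, and Aff3, Trabd2b and Gin1 at 1 of 2.

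The leading MB fall was Klhl30, a kelch-like protein gene expressed in muscle, with 448.0, 434.5 and 657.0 against 2818, 2596 and 2749. It fell by 2.40 (standard error 0.18, adjusted p = 2.31e-06), the largest fall in GM named on either design. E2f2, an activator of S-phase genes, read 610.8, 473.7 and 568.9 against 1502, 1575 and 1618 (-1.49 ± 0.16, both probe sets lower). The small nucleolar RNA host gene Snhg3 read 450.9, 443.2 and 472.7 against 1130, 1312 and 1770 (-1.57 ± 0.23). The 3 genes kept their calls without any 1 array, but E2f2 and Snhg3 lost them without the trend in eBayes, and Klhl30 alone kept its call in every setting tried. Klhl40, a muscle protein that stabilises thin filament components, read 140.6, 118.9 and 186.9 against 309.1, 267.5 and 287.4 (-0.91 ± 0.18). The other named falls were Prrg3 (-2.26), the plexin Plxna4 (-1.95), Btbd11 (-1.25), the potassium channel Kcnd1 (-1.21) and the mitochondrial RNA regulator Tbrg4 (-0.82). Btbd11 lost its call without shRNA replicate 2 or vector replicate 1 or 3, and Klhl40, Prrg3, Plxna4, Kcnd1 and Tbrg4 without at least 5 of the 6 arrays. Btbd11 was called at 1 of 3 tested probe sets, and Plxna4 and Kcnd1 at 1 of 2.

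**Figure D4:**
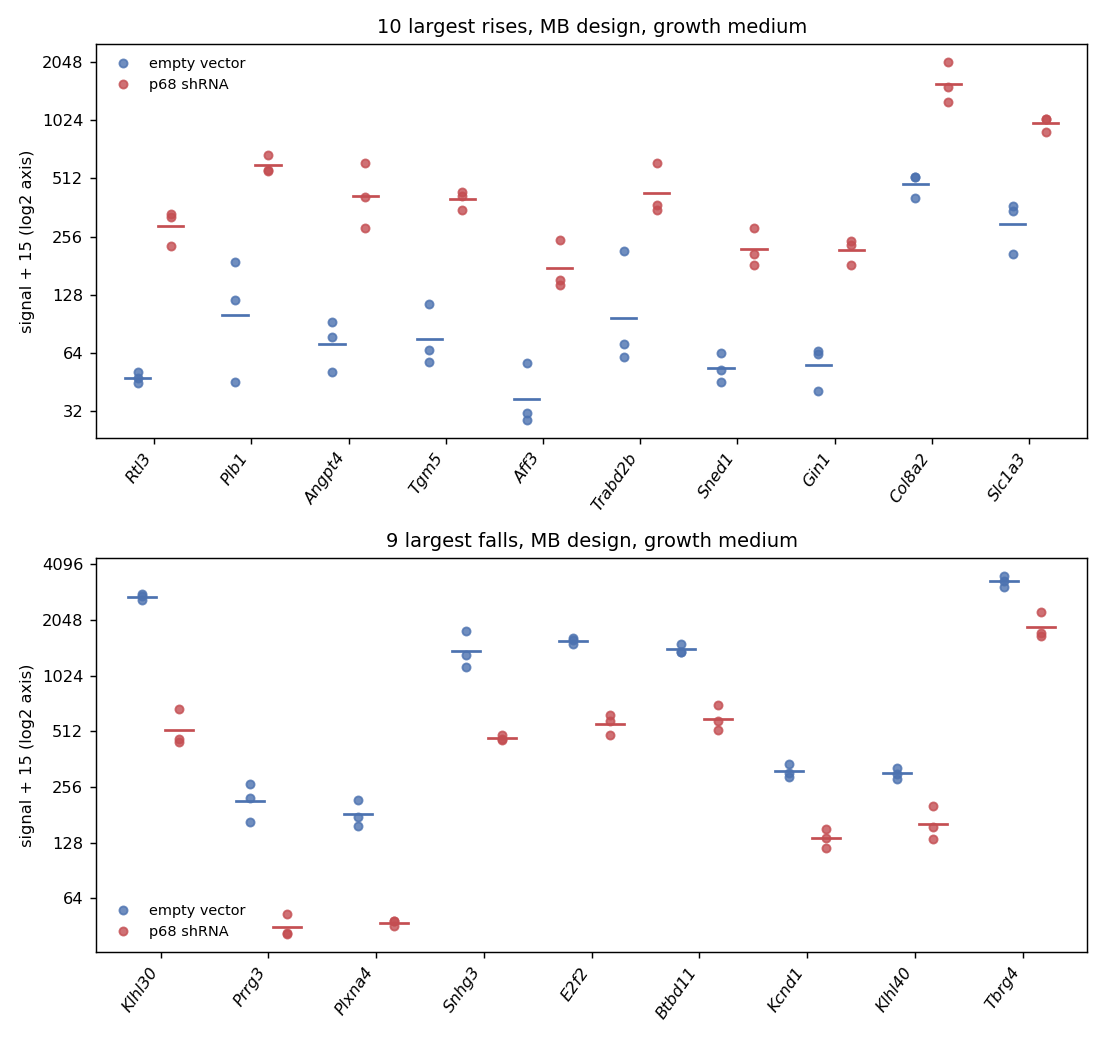
Signal + 15 (log2 axis) of each MB array in GM for the 10 largest rises and the 9 falls that met the naming rule. Points are arrays and bars the means on the log scale; Klhl30 lies at 434.5 to 657.0 with the shRNA and at 2596 to 2818 with the vector (signals without the added 15).

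The designs share 2636 named genes, read by different probe sets on each. Of the 94 of these called higher on the MA arrays, 67 were positive on the MB arrays and 10 were called higher there. At 30 of the 94 the MB groups did not overlap in that direction, against 9.10% of all shared genes. Of the 61 called lower, 44 were negative on MB and 0 were called (22 had groups that did not overlap in that direction, against 7.66% of all MB probe sets below and 6.9% above). Over all shared genes, 50.4% were positive on MB. With 1 probe set per gene, 0.403% of all MB genes were called higher and 0.0805% lower. The 10 genes higher on both were Angpt4, Bicc1, Col12a1, Igfbp3, Kremen1, Palld, Slc1a3, Slc35a2, Sulf2 and Synpo2. Col12a1 rose by 1.56 on MA and 1.37 on MB, Igfbp3 by 1.19 and 1.07, Slc1a3 by 1.37 and 1.73, and Sulf2, an extracellular sulfatase that trims heparan sulfate, by 1.35 and 0.96. Of the list members called on MB alone, 2 were the aggrecanase Adamts5 (519.4, 450.1 and 322.1 against 210.0, 173.4 and 151.1; 1.19 ± 0.22) and the Wnt receptor Fzd5 (1.51 ± 0.29). Each lost its call without 5 of the 6 arrays, Adamts5 all but shRNA replicate 3 and Fzd5 all but vector replicate 2.

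Whether the effect in growth medium differed from that in differentiation medium was tested as an interaction. The effects differed at 1430 MA probe sets (9.95%, of which 4.48% were more positive and 5.48% more negative in GM) and 75 MB probe sets (0.389%). Of the 573 probe sets higher in GM on MA, 181 were also higher in DM, which is 31.6% of the GM list and 11.8% of the 1533 higher in DM. Over all MA probe sets tested, 10.7% were higher in DM. The 573 had a median change of 0.70 in GM and 0.22 in DM, and the effects differed at 193 of them, at 184 with the larger rise in GM. Both these and the falls that follow were chosen by their change in GM, so a larger change there follows in part from that choice. Of the 369 lower in GM, 94 were also lower in DM (25.5% of the GM list and 10.5% of the 897 lower in DM, which are 6.24% of those tested), and 145 differed. These 2 comparisons share no arrays. They do share the fit's estimate of spread.

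Among the leading rises, Sfrp2 rose in both media, by 3.20 in GM and 1.41 in DM, and the difference of 1.79 passed (adjusted p = 4.6e-05). Prelp (2.69 and 1.89) and Ccn3 (2.15 and 1.17) also rose in both, with differences that did not pass. Gas6 (3.17 and 0.78) rose more in GM. Several others rose in GM and had no call in DM: Plin4 (2.06 and -0.28), Lpl (1.92 and 0.03), Gpx3 (1.87 and 0.27), Selenop (2.16 and 0.17) and Cxcl1 (1.79 and -0.36), and for each of them the difference passed. Igf2 changed direction, rising by 1.95 in GM and falling by 1.04 in DM (difference 2.99, adjusted p = 0.00023). Among the falls, Col18a1 fell by 1.20 in GM and rose by 1.70 in DM.

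The genes with the firmest interaction mostly had the larger change in DM. With more positive effects in GM, Ankrd1, a stress-responsive muscle ankyrin repeat protein, changed by 0.21 in GM (adjusted p = 0.363) and by -2.57 in DM. Its other probe set changed by -0.07 in GM, so the GM value of this gene has no settled sign. Gtpbp2 changed by 0.01 and -1.98, the glycogen-binding Stbd1 rose by 0.49 in GM and fell by 1.82 in DM, and Ddit3 rose by 0.74 and fell by 1.52. In the other direction, S100a4 changed by -0.02 in GM and 1.94 in DM, the desaturase Fads2 by -0.25 and 1.82, the mitotic ubiquitin enzyme Ube2c by -0.20 and 1.67, and Fabp5 fell by 0.47 and rose by 1.71. Of the GM values in this paragraph, those of Stbd1, Ddit3 and Fabp5 passed. Stbd1 lost its GM call without shRNA replicate 3 or 4 or vector replicate 1 or 3, and Fabp5 without shRNA replicate 3 or vector replicate 1 or 3.

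On the MB design, 2.01% of genes were called in DM. The interaction was led by the myosin-binding M-band gene Myom2 (-0.22 in GM and -2.78 in DM), the mitochondrial folate enzyme Aldh1l2 (0.64 and -1.01), the amino acid transporter Slc38a2 (0.86 and -0.59), the host gene Snhg12 (0.65 and -0.79) and Aff3 (2.24 and -0.77). In the opposite direction stood the mitotic genes Cdca8 (-0.44 and 1.64) and Bub1b (-0.12 and 3.02), Syt13 (-0.20 and 1.51), Dynap (-0.40 and 1.20) and the replicative helicase subunit Mcm5 (-0.80 and 1.04). In GM, Slc38a2 and Aff3 passed, as given above.

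The effect on many mitotic and DNA replication genes differed between the media. Over all MA genes, 12.1% were higher and 6.67% lower in DM, and 10.6% differed by interaction, 4.57% more positive and 6.01% more negative in GM. All 30 mitotic genes called in DM were higher there, whereas 2 were lower in GM, and the effect differed in 27 of 33 by interaction, each time lower in GM. The list's median was -0.20 in GM and 1.22 in DM. For DNA replication, the medians were -0.30 and 0.73, and the effect differed in 21 of 33, each time lower in GM. Among 18 G1 cyclin, E2F and retinoblastoma family genes it differed in 6, of which 2 had the more positive change in GM. In vector cells, the mitotic and replication lists changed by a median of -2.23 and -1.95 from GM to DM. That response shares the GM vector arrays with the GM effect of the shRNA, and the DM vector arrays with its effect in DM, so the values stand side by side only.

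Of 41 ATF4 and CHOP targets, 12 were called lower in GM and 35 in DM (medians -0.29 and -0.80). The effect differed in 14, each time more negative in DM. Of 44 matrix genes, 14 were higher in GM and 22 in DM, with medians of 0.28 and 0.51. Their effect differed in 18, of which 7 had the more positive change in GM. Ribosome biogenesis genes were lower in 8 of 28 in GM and 6 in DM, and the effect differed in 3. Of the sarcomere genes, 22 of 31 were lower in DM (median -0.69) and 2 in GM, and the effect differed in 11, all more negative in DM.

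**Figure D5:**
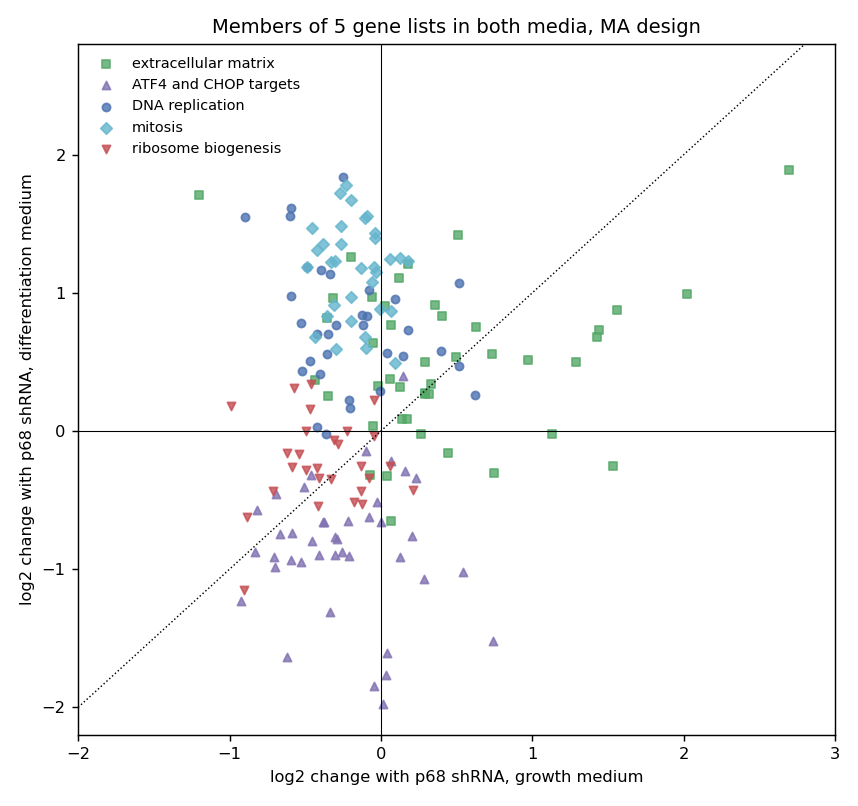
Log2 change with the shRNA in GM (horizontal axis) and in DM (vertical axis) of the measured members of 5 gene lists on the MA design; the dotted line marks equal change. Mitotic and DNA replication genes lie near or left of 0 in GM and mostly above 0 in DM, and the ATF4 and CHOP targets lie mostly below 0 in DM.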

How the data were processed

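Biotin-labelled targets made from the total RNA of C2C12 cells were hybridised, per the labels' protocols. The authors deposited a linear signal intensity for each probe set of an array. The submitters' processing notes name MAS5, with its settings not given in the sources used here. The deposited values had been scaled to a trimmed mean near 150. Probe sets were named through the designs' annotation (20380 of 22690 MA and 14661 of 22575 MB probe sets had 1 symbol; 64 controls per design were left out). Signals were analysed as log2(signal + 15), and probe sets with a signal of 30 in at least 3 of 12 arrays were tested. A model of 4 groups over the 12 arrays of a design was fitted in limma 3.58.1 under R 4.3.3, with eBayes (trend) and Benjamini-Hochberg adjustment at 0.05. In simulated MA data, 74% of probe sets changed by 1 and 94% of those changed by 2 on the log2 scale were recovered, and on MB 9% and 43%. The simulation changed 100 probe sets by each amount, with normal noise at each probe set's own SD. It gave 9 false calls on MA and 2 on MB. Recovery depends on how many probe sets change, so these shares need not hold for the data. Between 15.6 and 31.4% of the signals of a GM array lay under the pseudocount. Values are log2 changes ± standard error over 3 against 3 arrays.

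Named genes were, per design, the 15 (MA) or 10 (MB) largest rises and falls with groups that did not overlap and a signal of at least 75; Ddx5, Ddx17, Myod1, Myog, Myf5, Ccnd1, Cdkn1a, Drosha and Dgcr8; list members that passed; and the 5 firmest interactions per direction. The genes called on both designs, and the promoter sequences, were chosen after their values were seen. Members and lists were chosen with earlier results of these data known. Promoter windows are from RefSeq (GRCm38.p6), with bases counted from 0 at the start base; 7012 of 8639 measured MA genes had one.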

Additional observations from a re-analysis of the deposited data

Results flagged for a closer look

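For 83 of the named genes, the effect of the shRNA in growth medium differed from that in differentiation medium by the interaction test in limma at an adjusted p under 0.05, 69 on the MA and 14 on the MB design. Over all genes measured, 10.6% did so on MA and 0.736% on MB. Of the 83, 10 on each design were among those named for their interaction. Many of the others were named for their call in GM, and the GM effect is part of the interaction. The count is therefore no independent result, and the shares over all genes are not a matched background for it. Each value below is the log2 change in GM minus that in DM, over 3 against 3 arrays in each medium. A positive value means a more positive effect in GM. The cause of these differences was not tested.

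Among secreted and matrix genes, the effect was more positive in GM for Sfrp2 (1.79), Gas6 (2.39), Fbln7 (1.21), Fmod (1.03), Fbln5 (1.78), Col6a2 (0.71), Col6a1 (0.74), Thbs2 (1.16), Thbs1 (1.05) and Adamts1 (1.06), and for the selenoproteins and chemokine Selenop (1.99), Gpx3 (1.60) and Cxcl1 (2.15). It was more negative in GM for Col18a1 (-2.90), Timp1 (-1.06), Nid2 (-0.91) and Wnt10a (-1.07). In the insulin-like growth factor axis, Igf2 stood at the positive end and 2 binding proteins at the negative: Igf2 (2.99), Igfbp2 (-1.84) and Igfbp6 (-1.27).

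Of lipid, detoxification and metabolic genes, Plin4 (2.34), Lpl (1.89), Dbi (0.85), Car3 (1.34), Gstm5 (0.82), Bnip3 (1.03) and Egln3 (0.53) had the more positive effect in GM, and Fabp5 (-2.18), Fads2 (-2.07), Cyp51 (-0.62), Cbr2 (-1.35) and Gstm2 (-0.90) the more negative. The respiratory chain genes Ndufs4 (1.54), Cox6c (0.55) and Ndufa1 (0.45) were more positive in GM, while the genes of mitochondrial protein synthesis Tufm (-0.85) and Mrpl12 (-1.10) were more negative.

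The flagged genes of the cell cycle and DNA replication that had the more negative effect in GM were Ccnd1 (-1.90), Ube2c (-1.87), Plk1 (-1.68), Top2a (-1.73), Rfc5 (-1.57), Pole (-2.21), Mcm3 (-1.31), Pold2 (-0.96), Lig1 (-1.68), Rpa1 (-0.98) and Mcm7 (-1.12). Most of these were named for a lower call in GM, so their shared sign follows in part from that choice. Of the 6 G1 cyclin, E2F and retinoblastoma family genes that differed, 2 had the more positive change in GM, as given above. The nucleolar and helicase genes Fbl (-1.17), Gar1 (-0.50) and Ddx39a (-0.57) were more negative in GM as well, and the translation factor Eif4a2 (1.26) more positive.

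Of signalling, stress and muscle genes, Ankrd1 (2.78), Stbd1 (2.30), Ddit3 (2.26), Gtpbp2 (1.99), Rgs4 (1.58), Sgcb (1.10) and Jun (0.98) were more positive in GM. The negative side held Errfi1 (-0.65), Kcnn4 (-1.90), Ngef (-1.42), Msln (-0.80), S100a4 (-1.96), Tagln2 (-0.98), Ifitm1 (-1.14), Cdh15 (-1.26), Itga6 (-1.47) and Tead2 (-1.56).

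On the MB design, the effect was more positive in GM for Aff3 (3.01), Gin1 (3.31), Myom2 (2.56), Aldh1l2 (1.65), Slc38a2 (1.45) and Snhg12 (1.44). It was more negative for Klhl30 (-1.77), Snhg3 (-1.63), E2f2 (-1.34), Cdca8 (-2.08), Bub1b (-3.15), Syt13 (-1.71), Dynap (-1.60) and Mcm5 (-1.84).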

How the results depend on the processing

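Nothing in the series' labels pairs the arrays of the 2 groups. The deviations of same-numbered arrays correlated at 0.143 and 0.093 over 2 MA pairs and at -0.010, -0.031 and 0.028 over 3 MB pairs. Pairs with different numbers ranged from -0.108 to 0.077 on MA and from -0.064 to 0.074 on MB. The same-numbered MA pairs were thus the highest on that design, and these values do not settle whether numbers were shared. The main fit took no pairing, because the labels give none. With the replicate number as a block, 551 MA probe sets were higher and 362 lower, and 36 and 11 on MB. Of these, 459, 294, 31 and 11 were also called without the block, out of 573, 369, 40 and 13. The block ended the calls of 15 named MA genes (Kcnn4, Dkk3, Igfbp5, Bmp4, Itga6, Id1, Nop56, Nars, Top2a, Col5a2, Pdia3, Dnajc3, Hsd17b7, Ndufb8 and Ndufa1) and 4 named MB genes (Sned1, Plxna4, Tbrg4 and Fzd5), and it changed the sign of Myod1 (-0.0246), which passed in no fit. Leaving out 1 array at a time gave 271 to 416 higher and 138 to 219 lower MA probe sets, 5 to 29 higher and 4 to 12 lower MB probe sets, and 36 to 66 MB probe sets with a different effect in GM than in DM. With array weights, the MA counts were 1137 higher, 742 lower and 2919 different between the media, and the MB counts 68 and 27. A fit of the 6 GM arrays alone called 561 lower on MA. Without the trend in eBayes, 233 MA probe sets were lower, and MB had 5 higher, 4 lower and 0 different between the media (1479 at an unadjusted p under 0.05, limma). Quantile normalization gave 68 higher, 35 lower and 116 different on MB, and median centring 16, 7 and 33. On MB, rises were 75.5% of the calls, and 29.4% without shRNA replicate 1.

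Changes near 0 that did not pass changed sign in some fits. With quantile normalization, Gtpbp2 was -0.0573 and S100a4 0.121. With median centring, Gtpbp2 was -0.0585, Ddx17 -0.0450 and Myod1 -0.0163, and with array weights Gtpbp2 was -0.0160. Without 1 array at a time, the ranges were -0.00393 to 0.0691 for Ddx17, -0.0550 to 0.0992 for Gtpbp2, -0.0816 to 0.121 for Myod1 and -0.0730 to 0.0726 for S100a4. The cause of these changes was not tested.

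Of the 142 genes named and called on MA, 77 kept their call in every setting in which they were tested, and of the 24 on MB, 2 did. The filter at a signal of 150 in at least 3 arrays tested 170 of the 189 genes followed on the 2 designs, and the others had no call there to keep. The cause of the lost calls was not tested. Between 15.6 and 31.4% of the signals of a GM array were under the pseudocount, where a log2 change understates the ratio.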
